A study of Mus musculus with 5 samples.

Results

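Cycling fibroblasts were studied here in single-cell RNA-seq of spinal cord cells sorted for a green fluorescent Col1a1 reporter. Members were 161 of the 7205 barcodes in the tables, and of 4108 fibroblast barcodes after filtering: 111 in EAE 1, 48 in EAE 2, 0 in Healthy 1, 0 in Healthy 2 and 2 in Healthy 3. A fibroblast barcode had at least 200 genes, at most 10% mitochondrial UMIs (unique molecular identifiers, each standing for 1 captured transcript), at least 2 UMIs over Col1a1, Col1a2, Col3a1 and Dcn, and no UMI of Tyrobp, Cd3g or Rgs5, which mark myeloid cells, T cells and pericytes. A cycling one also had at least 2 UMIs over Mki67, Top2a, Cdk1, Ccnb1, Ccna2 and Birc5. The EAE libraries (2) came from mice with experimental autoimmune encephalomyelitis, a disease model of immune attack on myelin with inflammation of the cord, and the Healthy libraries (3) from mice without it. Every mouse carried the Col1a1GFP reporter on a C57/BL6 background, and age, sex, stage of disease and way of induction are not stated by the labels. The reporter selects cells with Col1a1 promoter activity, which is not limited to fibroblasts. Whether each library is a different animal is not stated, so the p-values below rest on spread between libraries that may be technical.

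A dividing cell passes through G1, copies its DNA in S phase, prepares in G2 and separates its chromosomes in mitosis. Genes for replication, such as those of the Mcm helicase, are transcribed from late G1 under E2F factors, and genes of the spindle, kinetochore and mitotic kinases in G2, under the MuvB complex with B-Myb and FoxM1. Most fibroblasts of the meninges and vessels of the adult cord rest outside the cycle, and fibroblasts that divide after injury or inflammation contribute to scar tissue.

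EAE 1, Healthy 1 and Healthy 2 carried no sequencing lane in their labels, whereas EAE 2 and Healthy 3 did, and these were treated as 2 batches. The tables held 376 to 2293 barcodes and 1588693 to 10775024 UMIs per library, with a median of 4230.5 and 5002.5 UMIs per barcode in EAE 1 and EAE 2, and of 615, 913 and 4258 in Healthy 1, Healthy 2 and Healthy 3. The libraries of the first batch had many barcodes in common: EAE 1 shared 1239 with Healthy 1 and 683 with Healthy 2, and Healthy 1 and Healthy 2 shared 996. Each was counted only in the library where its UMI total was highest. Of the 111 cycling barcodes of EAE 1, 104 (93.7%) were also present in Healthy 1 and 88 (79.3%) in Healthy 2, with a median UMI total 0.0920 and 0.102 times that in EAE 1. Of the non-cycling fibroblast barcodes of EAE 1, 66.1% and 32.8% were present there.

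The genes that chose the members are described without a test. Birc5, a subunit of the chromosomal passenger complex, was detected in the most members, 90 of 111 in EAE 1 and 39 of 48 in EAE 2, with 284 and 141 UMIs. Top2a, which untangles DNA, had 296 and 67 UMIs, and the proliferation mark Mki67 had 119 and 51. Ccna2 (cyclin A) had 116 and 34 UMIs, Cdk1, the main mitotic kinase, 90 and 24, and Ccnb1 (cyclin B) 88 and 35. Members carried 2 to 54 UMIs of the 6 genes in EAE 1 (median 6) and 2 to 34 in EAE 2 (median 5). Just inside the threshold, 22 members of EAE 1 and 11 of EAE 2 had 2 UMIs, and just outside it 118 and 79 fibroblasts had 1 UMI. The 2 members of Healthy 3 were unlike each other. The first had 8872 UMIs with 3 of Top2a and 1 of Cdk1, together with 75 UMIs of the replication gene list and 43 of the mitosis gene list. The second had 2120 UMIs with 2 of Top2a, and 1 UMI of each list.

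Share of cycling fibroblasts by library. Deeper cells pass a threshold of 2 UMIs more easily, so every fibroblast was thinned to 1000 UMIs and shallower ones were left out (0 in EAE 1, 47 in EAE 2, and 266, 21 and 9 in Healthy 1, Healthy 2 and Healthy 3). After thinning, 27 of 1579 fibroblasts of EAE 1 were cycling (1.71%, exact 95% interval 1.13% to 2.48%), and 7 of 1068 of EAE 2 (0.655%, 0.264% to 1.35%). None were in the Healthy libraries: 0 of 407, 0 of 368 and 0 of 343, which allow shares of up to 0.737%, 0.815% and 0.875% by a limit of 3 counts. Their exact 95% intervals reach further, to 0.902%, 0.997% and 1.07%. Intervals and these limits cover counting error only. The EAE libraries did not overlap the Healthy ones, and averaged 1.18% ± 0.746 (SD, n = 2) against 0% (n = 3). The exact two-sided permutation test gave p = 0.2, the smallest it can give with 5 libraries, so the difference did not pass a threshold of 0.05. Within the batches it was 1.71 and 0.655 percentage points. With labels permuted within batches exact p was 0.333, again the smallest possible, here with 6 arrangements. The limits of the Healthy libraries reach above the value of EAE 2, so between EAE 2 and Healthy 3 no difference was detectable at this depth. Without thinning the shares were 7.03% and 4.30% in the EAE libraries, and 0%, 0% and 0.568% in Healthy 1, Healthy 2 and Healthy 3.

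The direction turned when shared barcodes were kept in every library as deposited: 1.71% and 0.655% in EAE 1 and EAE 2, against 2.52%, 3.02% and 0% in Healthy 1, Healthy 2 and Healthy 3 (difference -0.667 points, exact permutation p = 0.6). Among the barcodes left out of Healthy 1 and Healthy 2 as shared, 35 of 1541 and 26 of 683 had at least 2 UMIs of the 6 genes. The second batch shared 1 barcode between EAE 2 and Healthy 3, and its difference was the same with every barcode kept. A set of 6 mitosis genes outside the rule (Ube2c, Cenpf, Tpx2, Cdc20, Nusap1 and Cks2) gave 1.58% and 1.03% in EAE 1 and EAE 2. In Healthy 1, Healthy 2 and Healthy 3 it gave 0.246%, 0% and 0.292%. These values are from the same cells and are not an independent sample.

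**Figure D1:**
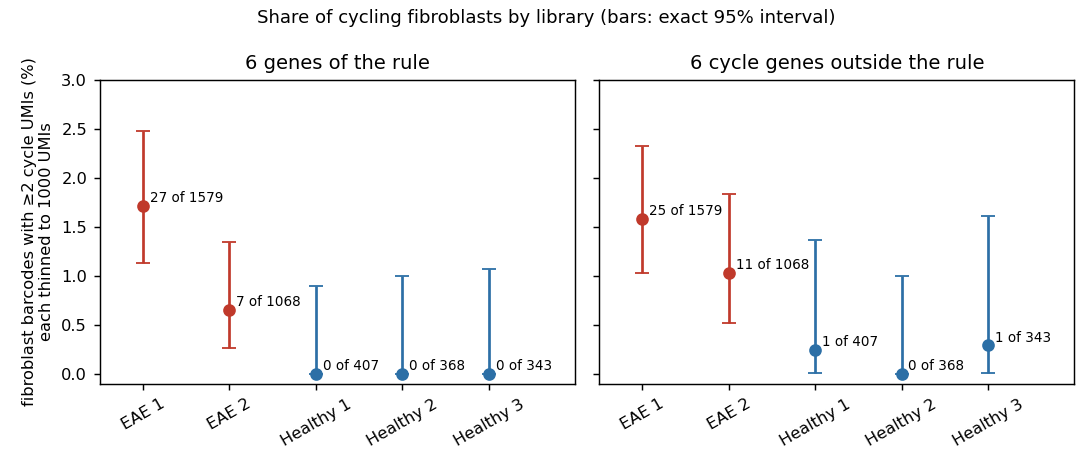
Share of fibroblast barcodes with at least 2 UMIs of cycle genes after thinning to 1000 UMIs (vertical axis, percent) in each library (horizontal axis), for the 6 genes of the rule and for 6 genes outside it. Points are libraries and bars exact 95% binomial intervals; EAE 1 is highest in both panels, at 1.71% and 1.58%, and the Healthy libraries lie between 0% and 0.292%.

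As a background for such UMIs, cells of other types in the same sort were thinned in the same way. Cells with at least 2 UMIs of Myh11, a myosin of smooth muscle, had 0 cycling cells of 36 in EAE 1 and 0 of 5 in EAE 2, with 0 of 17, 0 of 23 and 0 of 14 in the Healthy libraries. Their median depth was 2752 UMIs in EAE 1, against 4592 in the fibroblasts. The 36 cells allow a share of up to 8.33%, above that of the fibroblasts, so smooth muscle gave no tighter bound. Among cells with at least 2 UMIs of Tyrobp, 3 of 101 in EAE 1 were cycling (2.97%, exact interval 0.617% to 8.44%), and 0 of 8 in EAE 2. T cells, melanocytes and pericytes of EAE also included cycling cells, with values in a later section.

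Genes of the cycle outside the rule. The label was checked with replication and mitosis genes that the rule did not use. The 6 mitosis genes here were Ccnb2, Cdc20, Plk1, Ube2c, Cenpf and Tpx2, not the set used for the shares. Of fibroblasts with no UMI of the rule's 6 cycle genes, 8% in EAE 1 and 6.88% in EAE 2 had a UMI of the 6 mitosis genes, against 28.0% and 25.3% of those with 1 rule UMI. With exactly 2 rule UMIs, the entry to membership, it was 68.2% and 90.9%, and with at least 10 it was 96.3% and 100%. For 6 replication genes (Rrm2, Tyms, Tk1, Mcm3, Mcm5 and Gins2) these shares were 12.6% and 12.7% at 0 UMIs, 32.2% and 29.1% at 1, 40.9% and 18.2% at 2, and 100% in both libraries at 10 or more. Cells with more rule UMIs were also deeper, with medians of 4345 and 4824.5 UMIs at 0 rule UMIs and 11414 and 14839 at 10 or more. Compared with depth-matched fibroblasts without a rule UMI, 86.5% of members against 12.6% had a mitosis UMI in EAE 1, and 91.7% against 12.5% in EAE 2. For the replication genes it was 80.2% of members against 24.8% in EAE 1, and 68.8% against 24.2% in EAE 2.

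**Figure D2:**
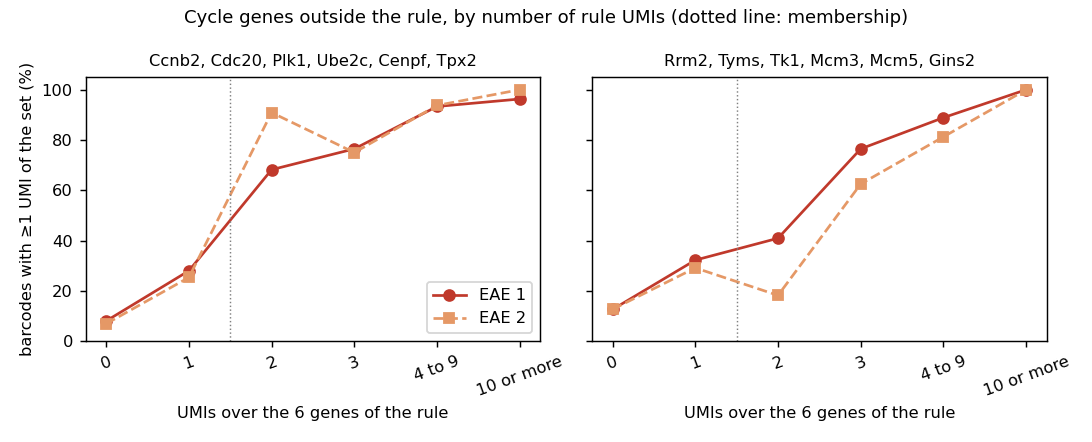
Percent of EAE fibroblasts with a UMI of 6 mitosis genes or 6 replication genes outside the rule (vertical axis), by the number of UMIs of the rule's genes (horizontal axis). The dotted line is the membership threshold; mitosis genes were found in 8% and 6.88% of cells at 0 rule UMIs and in 96.3% and 100% at 10 or more.

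Among members, 79 of 111 in EAE 1 and 33 of 48 in EAE 2 carried UMIs of both sets. Mitosis genes alone were found in 17 and 11, replication genes alone in 10 and 0, and neither in 5 and 4. Members with at least 5 mitosis UMIs numbered 57 and 21, and those with at least 5 replication UMIs 35 and 8, of which 20 and 5 had both. The 9 members with neither set had 2 or 3 rule UMIs, with 1 exception in EAE 2. The rule's genes peak in S, G2 and mitosis, and cells in G1 may fall outside it.

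**Figure D3:**
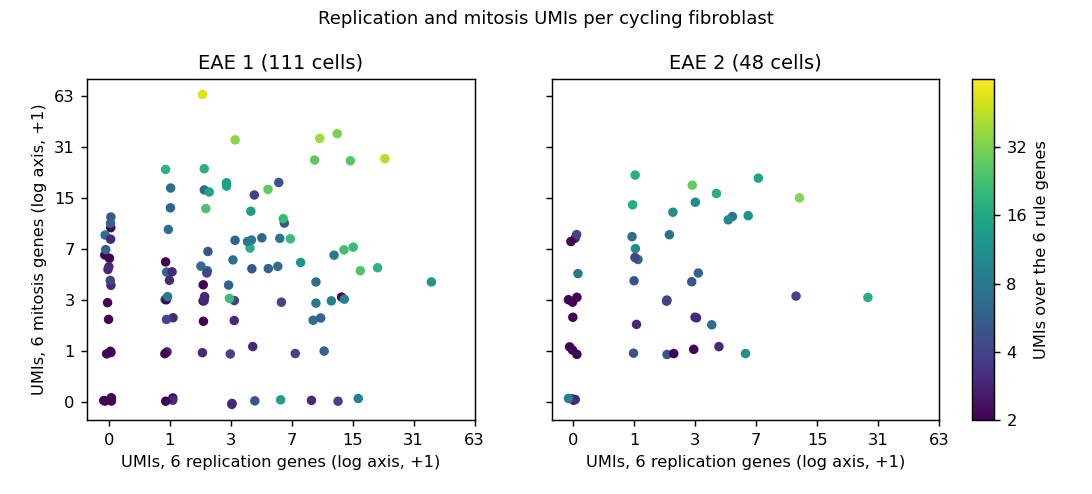
Each point is 1 cycling fibroblast, with its UMIs of 6 replication genes (horizontal, log axis) and of 6 mitosis genes (vertical, log axis), and its UMIs of the rule's genes in colour; points are shifted slightly at random. Most of the 111 and 48 cells carry both kinds, with up to 63 mitosis UMIs in EAE 1 and 21 in EAE 2.

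Cycling fibroblasts of EAE had more UMIs. To keep the choice of cells free of depth, cells were called cycling after thinning to 2000 UMIs, and their full totals were then compared. The median total was 8563 UMIs in 61 cycling cells, against 4547 in fibroblasts with no cycle UMI, in EAE 1 (1.88 times). In EAE 2 it was 10294.5 UMIs in 16 cycling cells, against 5419 (1.90 times). With 1000 UMIs the ratios were 1.92 and 1.63. Totals were higher in both EAE libraries, too few for a test. The 1 cycling cell of Healthy 3 at this depth had 2120 UMIs, against a median of 4701. At 2000 UMIs the median number of genes detected was 1093 and 1062 in the cycling cells of EAE 1 and EAE 2, against 1057 and 1051. Barcodes that hold more than 1 cell were not removed, and their part in these totals was not tested.

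Expression against matched fibroblasts. Every further comparison was between UMI sums of members and of fibroblasts of the same library with no cycle UMI, matched on UMI total (278 in EAE 1, with a median of 8183 UMIs in members against 7532, and 120 in EAE 2, with 11373 against 10694). Of 8669 genes tested with edgeR, 551 were higher in cycling fibroblasts (6.36% of genes) and 582 lower (6.71%) at an adjusted p under 0.05, and 540 and 577 of these had the same direction in both libraries. The test had 4 sums and 1 residual degree of freedom, so its error rested largely on spread shared across genes. DESeq2 called 135 and 82 genes, and called 217 of the 1133 again in the same direction. Levels below are CPM, UMI counts scaled to the same total in each sum with TMM factors, and fold changes are log2 values ± SE. The median over all genes was -0.03.

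Mitosis genes were the largest rises. Of 48 listed genes 41 passed the filter on low counts, 39 of these were higher and none lower, with a median log2 fold change of 4.72. Since the cells were chosen on related genes, this describes the choice. The checkpoint gene Bub3 (0.36 ± 0.22, adjusted p = 0.321) and the securin gene Pttg1 (-0.18 ± 0.26, adjusted p = 0.756) did not pass. Hmmr, a spindle protein also known as the hyaluronan motility receptor (chr11:40701395-40733422, minus strand, GRCm38), had 116 and 92.6 CPM in cycling cells of EAE 1 and EAE 2, against 0.499 and 0 CPM in matched cells. The matched cells held 1 UMI of it in all, so the pooled ratio of 346 had a wide counting interval of 61.3 to 13749. Ube2c, the ubiquitin-conjugating enzyme of the anaphase-promoting complex (chr2:164769898-164778822, plus strand), had 162 and 41.9 CPM against 0.997 and 0.826 CPM, a ratio of 127 (42.8 to 621). Cenpa, the histone of the centromere, had the lowest adjusted p of the list, with 283 and 302 CPM against 8.47 and 3.30 CPM and a log2 fold change of 5.48 ± 0.27 (adjusted p = 3.2e-86). The kinetochore motor Cenpe (104 and 94.4 CPM against 1.99 and 0.826) and the passenger subunit Cdca8 (125 and 69.9 CPM against 0.997 and 1.65) rose by 5.93 ± 0.39 and 6.27 ± 0.40. Ube2c missed the threshold in the fit without library pairs (adjusted p = 0.0627), while Hmmr, Cenpa, Cenpe and Cdca8 passed in all 15 alternative fits that tested them.

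Other members of the 12 largest rises were Anln and Kif23, needed for cytokinesis, Plk1, a mitotic kinase, the spindle proteins Ckap2 and Ckap2l, Fam64a, and 2810417H13Rik, listed by RefSeq as Pclaf, a partner of the replication clamp. In the matched cells Anln, Kif23, Plk1, Ckap2, Ckap2l and Fam64a had 1 to 3 UMIs. Their pooled ratios were 60.1 (Ckap2l, interval 19.9 to 297) to 160 (Anln, 27.8 to 6389). Genes with no UMI in the matched cells, named after their values were seen, were Nusap1 and Bub1, with 59 and 41 UMIs in members, and the kinases Aurka and Aurkb, with 49 and 51 UMIs, which were not tested since they fell under the filter. Against a limit of 3 UMIs over both libraries these were at least 40.3-fold, 28.0-fold, 33.4-fold and 34.8-fold higher. Wider cell cycle genes that resting cells also use rose less: Tuba1b, a tubulin, by 1.51 ± 0.17 and the variant histone H2afz by 2.28 ± 0.18.

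Replication genes rose as well, with a smaller median. All 27 of the 33 listed genes that passed the filter were higher, with a median of 2.43 against 4.72 for mitosis genes. As with mitosis genes, the cells were chosen on related genes, so this describes the choice. Tk1, thymidine kinase, had 115 and 31.5 CPM in cycling cells of EAE 1 and EAE 2, against 4.49 and 1.65 CPM (4.56 ± 0.36, adjusted p = 1.3e-33). Rrm2, the ribonucleotide reductase subunit limiting for deoxynucleotides, had 114 and 55.9 CPM against 5.48 and 2.48 CPM (4.37 ± 0.33). The chromatin remodeller Hells had 40.05 and 38.5 CPM against 0.997 and 5.78 CPM (3.75 ± 0.45). All 3 were higher in both libraries. The helicase subunits Mcm2 to Mcm7 ranged from 1.27 (Mcm4) to 3.53 (Mcm5). Pcna, the replication clamp, had the smallest rise at 0.88 ± 0.21 (148 UMIs in members and 157 in the more numerous matched cells). It had 112 against 44.9 CPM in EAE 1, but 62.9 against 55.3 CPM in EAE 2. Tk1 lost the call without library pairs (adjusted p = 0.0978).

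Nucleotide and chromatin genes were higher in 19 of 22 tested with a median of 1.01. Lmnb1, a nuclear lamin, had 80.1 and 71.7 CPM against 7.98 and 8.26 CPM (3.23 ± 0.30, adjusted p = 2.8e-24). Ezh2, the methyltransferase of histone H3, had 80.1 and 40.2 CPM against 16.5 and 23.9 CPM (1.70 ± 0.27), but passed neither with DESeq2 (adjusted p = 0.204) nor without library pairs (0.115). The 3 genes that did not pass were Nme2 (0.40), Hist1h1c (0.08) and Hist1h2bc (-0.02).

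Promoters of 6 genes that rose are shown as examples of motifs of cell cycle promoters, and were chosen after their matches were seen. Windows were the 250 bases before each RefSeq gene start in GRCm38.p6, with 41 of 48 mitosis genes (44 windows) and 26 of 33 replication genes (31 windows) matched. Searched on both strands were the cell cycle homology region, known as the CHR and bound by MuvB (TTTGAA or TTCGAA), the CCAAT box bound by NF-Y (CCAAT), and E2F sites (TTTCCCGC, TTTCGCGC, TTTGCCGC or TTTGGCGC). Matches may overlap or adjoin and then print as 1 run of capitals. The sequences read 5′ to 3′ on the gene's strand and end at the base before the start. The first 4 belong to mitosis genes and the last 2 to replication genes, and capitals mark every match of the 3 motifs:
Ube2c, chr2:164769679-164769928, plus strand: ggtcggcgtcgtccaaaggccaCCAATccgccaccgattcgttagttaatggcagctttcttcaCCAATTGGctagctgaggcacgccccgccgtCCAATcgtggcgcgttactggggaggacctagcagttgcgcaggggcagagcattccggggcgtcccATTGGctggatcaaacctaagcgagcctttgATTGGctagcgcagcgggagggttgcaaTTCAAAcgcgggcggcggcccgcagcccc
Cdc20, chr4:118437344-118437593, minus strand: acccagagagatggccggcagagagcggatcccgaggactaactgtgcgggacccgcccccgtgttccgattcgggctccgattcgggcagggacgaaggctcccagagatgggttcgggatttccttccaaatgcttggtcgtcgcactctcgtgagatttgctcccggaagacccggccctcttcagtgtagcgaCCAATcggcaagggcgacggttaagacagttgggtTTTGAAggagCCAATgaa
Ckap2l, chr2:129297213-129297462, minus strand: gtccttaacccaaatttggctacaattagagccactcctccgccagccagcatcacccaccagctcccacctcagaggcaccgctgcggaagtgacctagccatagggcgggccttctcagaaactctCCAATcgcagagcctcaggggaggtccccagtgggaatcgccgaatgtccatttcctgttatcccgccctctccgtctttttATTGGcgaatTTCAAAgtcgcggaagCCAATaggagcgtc
Hmmr, chr11:40733438-40733687, minus strand: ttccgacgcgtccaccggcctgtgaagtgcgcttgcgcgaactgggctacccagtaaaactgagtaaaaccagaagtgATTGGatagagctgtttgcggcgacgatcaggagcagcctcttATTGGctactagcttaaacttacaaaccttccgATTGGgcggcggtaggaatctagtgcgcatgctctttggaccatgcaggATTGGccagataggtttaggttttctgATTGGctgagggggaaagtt
Hells, chr19:38930740-38930989, plus strand: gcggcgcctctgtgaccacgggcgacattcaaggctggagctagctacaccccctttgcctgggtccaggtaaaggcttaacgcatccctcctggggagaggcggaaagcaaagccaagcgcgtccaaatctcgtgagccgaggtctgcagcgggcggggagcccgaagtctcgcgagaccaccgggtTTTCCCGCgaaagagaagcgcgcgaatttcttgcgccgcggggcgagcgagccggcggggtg
Mcm6, chr1:128359706-128359955, minus strand: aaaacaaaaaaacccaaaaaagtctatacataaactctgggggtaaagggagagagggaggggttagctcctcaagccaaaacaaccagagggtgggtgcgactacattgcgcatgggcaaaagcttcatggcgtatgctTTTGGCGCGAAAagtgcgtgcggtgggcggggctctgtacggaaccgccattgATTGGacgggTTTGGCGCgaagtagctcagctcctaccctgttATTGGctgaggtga
Ube2c, Cdc20 and Ckap2l hold a CHR match starting at -29, -18 and -30, close to the gene start, beside 6, 2 and 3 CCAAT boxes. Hmmr holds 5 CCAAT boxes and no CHR match in this window. The printed gene coordinates of Ube2c are GENCODE's, which start upstream of the RefSeq start, so its CHR match lies inside them. Hells holds 1 E2F match at -62, and Mcm6 holds 3, at -110, -106 and -47, the first pair overlapping. Among larger rises, the windows of Nusap1 and Anln hold no match of the 3 motifs, nor does that of Tk1, and that of Rrm2 holds a CCAAT box alone.

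Over the lists, a CHR match was in 40.9% of mitosis windows, 12.9% of replication windows and 17.1% of all 32851 windows. A CCAAT box was in 77.3%, 51.6% and 33.8%, and both together in 38.6%, 9.68% and 6.02%. E2F matches were in 0 of 44 mitosis windows and 7 of 31 replication windows (22.6%), against 1.86% of all. These are matches of letters and show no binding.

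Regulators of cycle entry. Of 19 tested inhibitors of cyclin-dependent kinases and genes of rest, 6 were lower and 2 higher, with a median of -0.55. Cdkn1c, the inhibitor p57, had 28.0 and 15.7 CPM in cycling cells of EAE 1 and EAE 2, against 83.3 and 85.0 CPM (-1.85 ± 0.26, adjusted p = 7.5e-11), and passed in all 15 alternatives. Its levels did not overlap. Klf9 (120 and 180.0 CPM against 260 and 316) and Klf4 (226 and 192 CPM against 333 and 435), transcription factors linked to growth arrest, fell by 0.97 ± 0.19 and by 0.85 ± 0.19. Klf4 did not pass with DESeq2 (adjusted p = 0.0724), and without library pairs neither did (0.185 for Klf9 and 0.166 for Klf4). The p21 gene Cdkn1a had 62.1 and 69.9 CPM against 61.8 and 76.8 CPM (-0.06 ± 0.21, adjusted p = 0.922), and the p27 gene Cdkn1b 20.02 and 24.5 CPM against 21.9 and 34.7 CPM (-0.30 ± 0.32, adjusted p = 0.644). Neither passed. The inhibitors Cdkn2c (1.98 ± 0.39) and Cdkn2d (0.78 ± 0.27) were the 2 past the threshold upward, but Cdkn2d was higher in EAE 1 (64.1 against 25.4 CPM) and not in EAE 2 (24.5 against 30.5 CPM).

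Of 21 tested genes of the response to growth factors, 2 were higher and 5 lower (median -0.35). Ccnd1 (-0.02 ± 0.38) and Ccnd2 (-0.28 ± 0.23), the D cyclins of G1, Myc (0.08 ± 0.30), and the PDGF receptor genes Pdgfra (-0.35 ± 0.19) and Pdgfrb (0.21 ± 0.18) did not pass, with adjusted p of 0.984, 0.509, 0.918, 0.23 and 0.53. The early response factor Egr1 had 418 and 416 CPM against 761 and 983 CPM (-1.05 ± 0.18, adjusted p = 1.2e-07). Igf1, a growth factor, had 665 and 222 CPM against 1293 and 438 CPM (-0.97 ± 0.18). Both were lower in each library, but Igf1 lost its call without library pairs (adjusted p = 0.82). Cdk4, partner of the D cyclins, rose by 0.53 ± 0.18 and Srf by 0.96 ± 0.29, neither with DESeq2 (adjusted p = 0.622 and 1).

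Matrix genes. None of the 5 fibrillar collagen genes tested outside the rule passed (median 0.04). Col1a1, a gene of the rule, had 7309 and 7980 CPM in cycling cells of EAE 1 and EAE 2 against 7621 and 9125 CPM in matched cells, and Dcn (decorin) 5967 and 3707 CPM against 9024 and 6505 CPM. Of 43 other matrix genes 12 were lower and 3 higher, with a median of -0.28. Tnc, the wound matrix protein tenascin C, had 354 and 309 CPM against 144 and 158 CPM (1.15 ± 0.18, adjusted p = 2.2e-08). Timp1, an inhibitor of metalloproteinases, had 4663 and 1984 CPM against 2579 and 897 CPM (1.00 ± 0.17). Ogn, the proteoglycan osteoglycin, had 36.04 and 5.24 CPM against 139 and 59.4 CPM (-2.19 ± 0.26), and Eln (elastin) 304 and 48.9 CPM against 681 and 287 CPM (-1.63 ± 0.20). Within each library every one of these 4 genes moved the same way, but for Timp1 and Eln the difference between EAE 1 and EAE 2 was of the size of that between cell states. Eln lost its call with DESeq2 (adjusted p = 0.191), and Tnc, Timp1, Ogn and Eln lost theirs without library pairs (0.0523, 0.81, 0.476 and 0.796).

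Contractile genes rose in 7 of 10 tested (median 0.61), and none fell. Tagln (transgelin) had 418 and 893 CPM in cycling cells of EAE 1 and EAE 2 against 262 and 287 CPM (1.15 ± 0.18, adjusted p = 6.3e-09). Acta2, the smooth muscle actin of myofibroblasts and vessel wall cells, had 287 and 785 CPM against 188 and 269 CPM (1.08 ± 0.18). EAE 2 had the larger rise, and both genes lost their call against all fibroblasts with no cycle UMI, with 1 matched cell per member and without library pairs. The marker list of vessel wall cells summed to 447 and 524 CPM in members against 655 and 778 CPM in matched cells, where sums over marker lists are over plain UMI totals. Of its 8 genes, Myh11 had 0 UMIs in members, Vtn was lower (-0.94 ± 0.18), and Des did not pass (0.39 ± 0.20). The 4 genes tested had a median of 0.04. Vtn held 251 and 152 UMIs of the sum in members, against 896 and 674 in matched cells. Kcnj8 had 8 and 3 UMIs against 10 and 3, and Notch3 10 and 8 against 20 and 9. Abcc9 had 3 and 0 against 8 and 4, and Higd1b 0 and 1 against 2 and 3. In all, members held 981147 and 580292 UMIs and matched cells 2070453 and 1198962. Vtn lost its call without library pairs (adjusted p = 0.0952).

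**Figure D4:**
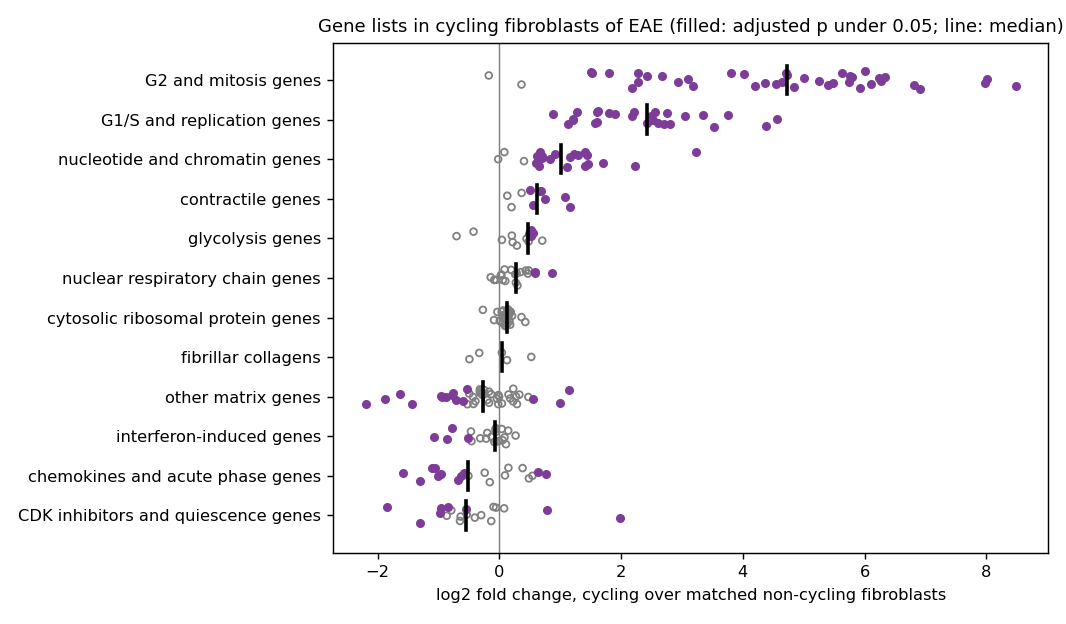
Log2 fold change of each tested gene (points; filled where the adjusted p is under 0.05) in cycling over matched non-cycling fibroblasts of EAE, by gene list, with the list's median as a line. The medians run from 4.72 for mitosis genes and 2.43 for replication genes to -0.55 for inhibitors and genes of rest, and that of fibrillar collagens is 0.04.

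Largest falls. Clec3b, the plasminogen-binding protein tetranectin (chr9:123150946-123157432, plus strand), had 8.01 and 3.50 CPM in cycling cells of EAE 1 and EAE 2 against 53.3 and 78.4 CPM (-3.28 ± 0.37, adjusted p = 8.3e-17), the largest fall by the rule for named genes. It passed in all 15 alternatives. Igfbp5, a binding protein of insulin-like growth factors (chr1:72857932-72874884, minus strand), had 254 and 119 CPM against 884 and 1347 CPM (-2.54 ± 0.19), but passed in 9 of 15 alternatives. Gjb2, a connexin of gap junctions, had 34.0 and 13.98 CPM against 132 and 79.3 CPM (-2.10 ± 0.25). Cemip, which helps degrade hyaluronan, had 70.1 and 26.2 CPM against 241 and 151 CPM (-2.01 ± 0.22). Gjb2 and Cemip lost their calls without library pairs (adjusted p = 0.0801 and 0.159). The other named falls were Ogn, given above, H19, Smoc2, Inmt, Itgbl1, Gpc3, Adh1 and Sult5a1, from -2.37 ± 0.40 (H19) to -1.95 ± 0.36 (Sult5a1). Of these 7, H19, Inmt, Itgbl1 and Sult5a1 did not pass with DESeq2, and Gpc3 alone passed in each alternative.

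Immune genes. Of 22 interferon-induced genes tested 4 were lower and none higher (median -0.08). They were Ifit1 and the class I antigen presentation genes H2-K1 (702 and 150 CPM against 986 and 395 CPM, -0.87 ± 0.18), H2-D1 and B2m. Chemokine and acute phase genes were lower in 9 of 19 and higher in 2 (median -0.51). Ccl2, a chemokine for monocytes, had 777 and 724 CPM in cycling cells of EAE 1 and EAE 2 against 450 and 433 CPM (0.77 ± 0.17, adjusted p = 0.000241), and the related Ccl7 rose by 0.64 ± 0.17. The complement gene C3 had 166 and 38.5 CPM against 365 and 224 CPM (-1.59 ± 0.20). The T cell chemoattractant Cxcl9 had 493 and 318 CPM against 493 and 255 CPM (0.14 ± 0.18, adjusted p = 0.703). Ccl7 and B2m did not pass with DESeq2 (adjusted p = 0.0942 and 0.137). Without library pairs H2-K1, H2-D1, B2m, Ccl2, Ccl7 and C3 lost their calls (adjusted p = 0.906, 0.849, 0.919, 0.131, 0.267 and 0.603).

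**Figure D5:**
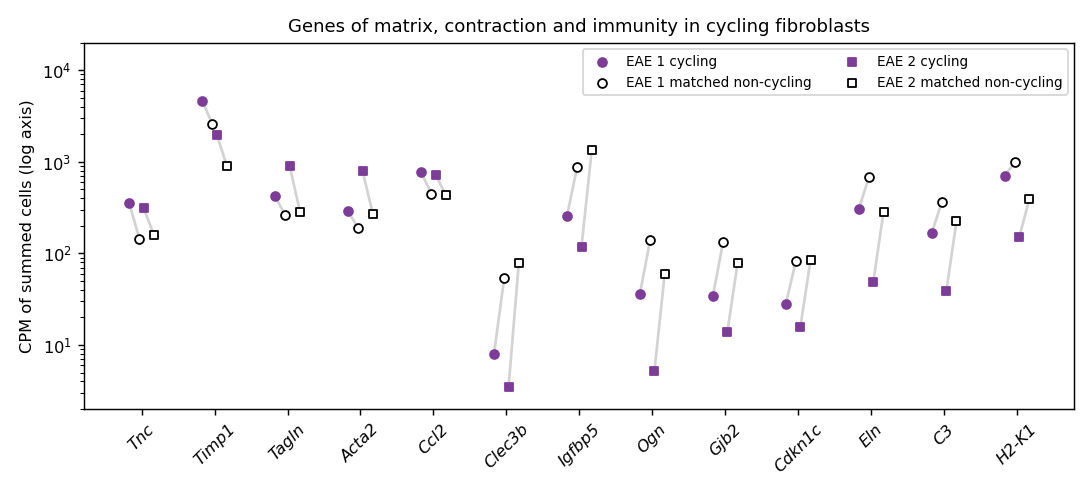
CPM (vertical, log axis) of 13 genes in summed cycling fibroblasts (filled) and matched non-cycling ones (open) of EAE 1 (circles) and EAE 2 (squares), with lines joining the cells of 1 library. Tnc, Timp1, Tagln, Acta2 and Ccl2 are higher in cycling cells of both libraries and the other 8 genes lower, Clec3b by the most (8.01 and 3.50 CPM against 53.3 and 78.4 CPM).

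Metabolic genes changed less than cycle genes. None of 33 ribosomal protein genes passed (median 0.13). Of 20 genes of the respiratory chain 3 were higher and none lower (median 0.26), led by Cycs, cytochrome c (284 and 260 CPM against 157 and 141 CPM, 0.87 ± 0.18). Of 14 glycolysis genes 4 were higher and none lower (median 0.46), and Eno1 rose most of the named ones (0.56 ± 0.19). Over all genes tested 6.36% were higher, with a median of -0.03. Cycs and Eno1 did not pass with DESeq2 (adjusted p = 0.0534 and 0.667).

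Markers of fibroblast groups. For 8 sets of markers that distinguish groups of cord fibroblasts, the share of cycling cells was counted in fibroblasts with at least 2 UMIs of a set and in those with fewer, all thinned to 2000 UMIs. Cells with Tnc, Cxcl9 or Col7a1 had the highest share, 11 of 159 (6.92%, interval 3.50% to 12.04%) in EAE 1 and 4 of 86 (4.65%, 1.28% to 11.5%) in EAE 2. Cells without had 3.65% and 1.34%. Cells with Lcn2 or Saa3 had 5.14% and 2.34%, against 3.02% and 1.43% of cells without. Cells of the set led by Osr2 and Gfra1 (also Gsn, Col9a2, Reln and Myoc) had 3 of 341 (0.880%) in EAE 1 and 1 of 234 (0.427%) in EAE 2, against 4.88% and 2%. Cells with Lsp1, Npy1r or Dapk1 had 1.86% and 0.836%, against 4.98% and 2.08%. No cycling cell was among 107 and 92 cells with Inmt, Cldn1 or Aldh1a3, which allows shares of up to 2.80% and 3.26%. Cells of the Clec3b, Itih5 and Igfbp3 sets had 3.23%, 3.31% and 2.69% in EAE 1, against 4.18%, 4.14% and 4.52% of cells without, and 0%, 0.377% and 0% in EAE 2, against 1.93%, 2.09% and 2.01%. With 61 and 16 cycling cells in all, most of these intervals overlap, and the shares are a description.

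Summed levels of the same markers came from the same libraries. All 3 genes of the Clec3b, Igfbp3 and Lsp1 sets were lower, as were 2 of 3 in the Itih5 set and in the Inmt set, and Gsn, the only gene of the Osr2 set above the filter (119 and 145 CPM against 261 and 206 CPM, -0.85 ± 0.19). Igfbp2 was lower in the fit (-0.68 ± 0.21, adjusted p = 0.0119), though EAE 1 alone showed no fall, with 282 CPM against 284 CPM, and it passed in 3 of 15 alternatives. Fmod, Edn3, Slc13a3, Cldn1, Dapk1, Lsp1 and Gsn did not pass with DESeq2 (adjusted p from 0.0724 for Lsp1 to 1 for Fmod and Cldn1), and Slc13a3 passed in 4 of 12 alternatives. Npy1r, a neuropeptide Y receptor, had 72.1 and 50.7 CPM against 171 and 158 CPM (-1.40 ± 0.21) and passed in all 15. Wnt4, a signalling ligand, had 177 and 36.7 CPM against 353 and 158 CPM (-1.33 ± 0.20). Without library pairs Wnt4, Igfbp3 and Itih5 lost their calls (adjusted p = 0.752, 0.82 and 0.079). Tnc was the only gene of its set to pass, and Lcn2 (0.48 ± 0.18, adjusted p = 0.0601) and Saa3 (0.09 ± 0.17, adjusted p = 0.811) did not. In Healthy 3, whose fibroblasts gave 1 cycling cell at this depth, 87.8% of fibroblasts had at least 2 UMIs of the Osr2 set, against 22.3% and 23.8% in EAE 1 and EAE 2. Too few Healthy members were found to compare EAE with Healthy within cycling cells.

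Identity of the members. Fibroblast markers outside the rule were found in every member, and their 12 genes summed to 12757 and 11823 CPM in members against 13332 and 13794 CPM in matched cells. Only Mmp2 (-0.88 ± 0.20) and Col6a1 (-0.60 ± 0.18) of the 12 passed, both lower, and neither did with DESeq2 (adjusted p = 0.176 and 0.405). Of the myeloid markers, Ptprc, Itgam, Aif1 and Laptm5 had 0 UMIs in the members of EAE 1, and the list of 9 summed to 16.3 and 12.1 CPM against 15.9 and 20.9 CPM. In EAE 1 Lyz2 had 8 UMIs in members against 12, Cd68 3 against 3 and Fcer1g 2 against 3. Csf1r had 2 against 4 and Ctss 1 against 5. Matched cells held 2070453 and 1198962 UMIs in all, against 981147 and 580292 in members. A myeloid UMI was found in 10.8% and 14.6% of members, against 8.27% and 14.2% of matched cells. Endothelial markers summed to 114 and 134 CPM against 138 and 159 CPM, with Cldn5 and Kdr at 0 in members of both libraries. None of the 4 tested passed (median 0.22). Cdh5, the largest part of the sum, had 83 and 46 UMIs, in 52 and 26 members, against 239 and 137 UMIs in the matched cells. Flt1 had 17 and 8 UMIs in members against 27 and 17, and Egfl7 10 and 6 against 13 and 12. Pecam1 had 1 and 14 against 4 and 22. Lymphocyte markers in EAE 1 summed to 2202 CPM in members against 10760 CPM, of which 2151 and 22246 UMIs were Igkc, an antibody light chain. Cd3d, Nkg7 and Ms4a1 were at 0 in both kinds of cell. Trac had 2 UMIs in members and 0 in matched cells, Cd3e 1 and 0, and Trbc2 2 and 2. Cd79a had 1 and 14, Cd79b 1 and 12, and Cd2 and Ltb 1 and 2 each. In EAE 2, where Igkc, Trac and Trbc2 were not analysed, the other 8 lymphocyte markers summed to 3.45 against 11.7 CPM. Melanocyte markers were found in 2 members of EAE 1, with 294 UMIs of Dct in all, and summed to 394 CPM against 71.5 CPM. Without the 12 members, all of EAE 1, and other barcodes with at least 5 UMIs of immune or melanocyte lists, 527 genes were higher and 503 lower.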

How the data were processed

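The authors deposited 5 tables of raw UMI counts per gene and barcode (10x Genomics v2, per the labels' protocols). Cell Ranger 2.1.1, Seurat 3 and build mm10 are named in the submitters' processing notes, and any filter before deposit is not given in the sources used here. Barcodes shared within the first batch were counted where their UMI total was highest. Doublets were not removed, and no caller was run. Members and gene lists were chosen with earlier results of these data known.

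Each member was matched without replacement to up to 3 fibroblasts of its library with no cycle UMI and a total within 20% (5 members of EAE 1 and 2 of EAE 2 had no match but stayed in the sums). The sums over the 27998 genes common to all tables, for libraries with at least 20 members, went into a robust quasi-likelihood fit of edgeR 4.0.16 (TMM, filter on low counts, terms for library and state, Benjamini-Hochberg), on 4 sums of 580292 to 2040225 UMIs. The 13 genes of the rule were not tested. Members and matched cells of 1 library form a pair by construction. DESeq2 1.42.0 was an alternative, and adjusted p-values are edgeR's unless it is named. Scripts were tested on simulated data.

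Named genes had an adjusted p under 0.05, a mean of at least 20 CPM and 1 direction in both libraries: the 12 largest rises and falls, up to 3 each way per list, and fixed regulators and subtype markers in any case. Shares have exact Clopper-Pearson 95% intervals, and the limit for 0 takes 3 counts.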

Additional observations from a re-analysis of the deposited data

Results flagged for a closer look

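Cells outside the fibroblasts also carried cycle UMIs in the EAE libraries, counted after thinning to 1000 UMIs. Among cells with at least 2 UMIs of Cd3g, a T cell gene, 8 of 36 in EAE 1 were cycling (22.2%, exact interval 10.1% to 39.2%), against 0 of 16 in EAE 2. Among cells with melanocyte genes 5 of 50 in EAE 1 were (10.0%, 3.33% to 21.8%). No such T cells or melanocytes were in the Healthy libraries, so no Healthy value can be set beside these. Among pericytes, marked by Rgs5, 1 of 55 in EAE 1 (1.82%) and 2 of 38 in EAE 2 (5.26%) were cycling, against 0 of 6, 0 of 24 and 0 of 12 in Healthy 1, Healthy 2 and Healthy 3. Barcodes that passed the collagen threshold and had at least 2 cycle UMIs but were kept out by Tyrobp, Cd3g or Rgs5 numbered 13 in EAE 1 and 10 in EAE 2, against 1 in Healthy 2.

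Among barcodes left out of Healthy 1 and Healthy 2 because they had more UMIs in another library, 35 and 26 carried at least 2 cycle UMIs, while no fibroblast counted there did.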

How the results depend on the processing

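The share of cycling fibroblasts was higher in EAE than in Healthy under every alternative but 1. Keeping barcodes in every library as deposited gave -0.667 points. The other alternatives gave 0.414 (500 UMIs) to 5.48 points (no thinning), and leaving out each library gave 0.655 to 1.71. The exact permutation p never went under 0.2, the smallest it can give. No paired analysis of EAE and Healthy was run, because the labels name no pairs of EAE and Healthy libraries. EAE 1 has no number in its title and was numbered here. Batch as a block, added after seeing the data, gave 1.18 points (exact permutation p = 0.333, the smallest this test can give).

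Counts of genes higher and lower in cycling fibroblasts moved by over 1.5 times in several fits, most for lower genes without the block. DESeq2 gave 135 and 82, the fit with no replicate block 113 and 14, all fibroblasts with 0 cycle UMIs as the comparison 1126 and 1196, thinning to 2000 UMIs 152 and 157, and 1 matched cell per member 304 and 310. Members with a matched cell only gave 434 higher and 385 lower. The last 2 of these, and leaving out barcodes with immune or melanocyte UMIs, were chosen after seeing the data. Other scalings, no filter, another seed and stricter cells stayed within 1.5 times. The causes were not tested, except that thinning leaves fewer UMIs. Without library pairs the difference between EAE 1 and EAE 2 stays in the error.

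Of 77 named genes past the threshold, 43 passed with DESeq2 and 18 without the block. Those tested, 60 to 77 of them per fit, kept their direction in each fit of both libraries. Without 1 library there is no residual degree of freedom, so only values are given. Then 1 gene turned, Igfbp2, at 0.027 without EAE replicate 2 and -2.94 without EAE replicate 1. The median of the mitosis list was 3.37 to 4.27, 3.87 thinned and 4.22 with 1 matched cell, and that of the replication list 1.59 to 2.21 with 1 library left out. Values with 1 library left out are log2 CPM ratios with a small added count, which shrinks them for genes with few UMIs. They are not fitted fold changes, so their shift is not that of a library alone. The cause of the other shifts was not tested. Depth limits the shares: 0 of 343 to 407 Healthy fibroblasts allows up to 0.737% to 0.875% by the limit of 3 counts.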
